A study of Mus musculus with 4 samples.

Results

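Translation initiation factors assemble the ribosome on an mRNA, and their genes were picked from a table of 55339 gene rows by symbol, as Eif followed by a digit, with a log2 expression value of at least 0 in 2 or more libraries. Symbols of pseudogenes and the sex-linked Eif2s3x and Eif2s3y were left out. The choice gave 52 rows, of which 51 hold measured values. The remaining row, Eif2c5, carries a former Argonaute name and is listed at 0 in all 4 libraries. Eif4e1b and Eif4ebp3 have values below 0 in every library and fell just outside, while Eif5a2 and Eif3j2 were the lowest rows inside. The libraries were made from polyadenylated RNA of leukemia cells from the bone marrow of C57BL/6 mice. The knockout group, labelled YBX1-/- and titled cKO, has 2 libraries (replicates 1 and 3). The WT group has 2 libraries (replicates 4 and 5). Both groups are leukemia cells. The driver of the leukemia, how and in which cells Ybx1 was deleted, and the age of the mice are not given in the sources used here. Nothing in the labels says that replicates came from separate animals, so p-values measure the spread between these libraries, which may be technical.

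In eukaryotic initiation, eIF2 brings the initiator tRNA to the small ribosomal subunit as a GTP-bound complex, and eIF2B recharges eIF2 with GTP after each round. The eIF4 proteins bind the mRNA cap and unwind the leader, eIF3 holds the small subunit and the mRNA together, and eIF1, eIF1A, eIF5 and eIF5B control start codon choice and subunit joining. Stress acts through kinases that phosphorylate eIF2α and thereby block eIF2B, and growth signals act through mTORC1, which releases eIF4E from its binding proteins. Ybx1 encodes YB-1, an mRNA-binding protein that also takes part in translation control.

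One WT library stood apart from the other 3. Over the 17303 rows tested, Pearson's r of WT replicate 4 with the other libraries was 0.69 to 0.71, against 0.93 to 0.96 among the other 3. Over the 51 initiation genes these values were 0.72 to 0.73 and 0.97 to 0.99. These correlations are across genes, which are not independent replicates. Ybx1 itself had 7.29 and 8.33 log2 in knockout replicates 1 and 3, against 19.70 in WT replicate 4 and 10.00 in WT replicate 5. Both knockout values were the lower ones, with a difference of -2.19 log2 from WT replicate 5 alone (limma adjusted p = 0.480) and of -7.04 log2 over 4 libraries (limma adjusted p = 0.826). Of the myeloid marker genes 9 of 9 were tested, and their summed level was 16.83 to 16.88 log2 in knockout and 16.39 to 24.05 log2 in WT libraries. Elane was the highest of them in every library and weighs most in the sum. Both knockout values were below WT replicate 5 for Ptprc, Itgam, Csf3r, Cd33 and Kit. They were above it for Elane and on either side of it for Mpo, Spi1 and Cebpa. Summed markers of T and NK, megakaryocytic and stromal cells reached at most 5.30 log2 in knockout and 5.48 log2 in WT libraries, with Cd3e, Cd3g and Gp1bb at 0 throughout. The table used here gives log2 values without read counts, and library depth is therefore unknown. For this reason, most counts and many differences below are given both over 4 libraries and against WT replicate 5 alone. The latter difference is that of the knockout mean from WT replicate 5.

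The initiation genes fell into separate groups by their level in WT replicate 4. In 12 of the 51 genes (23.5%) this library lay over 3 log2 above the median of the other 3, against 11.3% of all tested rows. These were Eif1, Eif2s2, Eif3c, Eif3k, Eif4a1, Eif4e, Eif4ebp1, Eif4g2, Eif4h, Eif5, Eif5a and Eif6, whose median over the other 3 libraries ran between 9.64 and 15.01 log2 while WT replicate 4 ran between 17.70 and 22.23 log2. In 25 genes (49%) it lay over 1 log2 below the others, against 29.3% of all rows. Among them, 13 genes (25.5% of the 51, against 10.2% of all rows) sat in a narrow band of 5.48 to 5.94 log2 in WT replicate 4, although their median over the other libraries spanned 7.73 to 10.13 log2. That band holds 3 of the 5 eIF2B subunits, Eif2b1, Eif2b3 and Eif2b5, together with Eif1ad, Eif1b, Eif2ak1, Eif3d, Eif3j1, Eif4a2, Eif4a3, Eif4e2, Eif4enif1 and Eif4g3. The last 14 genes (27.5%) lay between these limits. These shares are not matched for expression level. Among all tested rows, those over 1 log2 below had a median over the other 3 libraries of at least 4.71 log2. Rows between the limits are mostly lower, with 2.67 log2 as the middle value of that median.

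**Figure D1:**
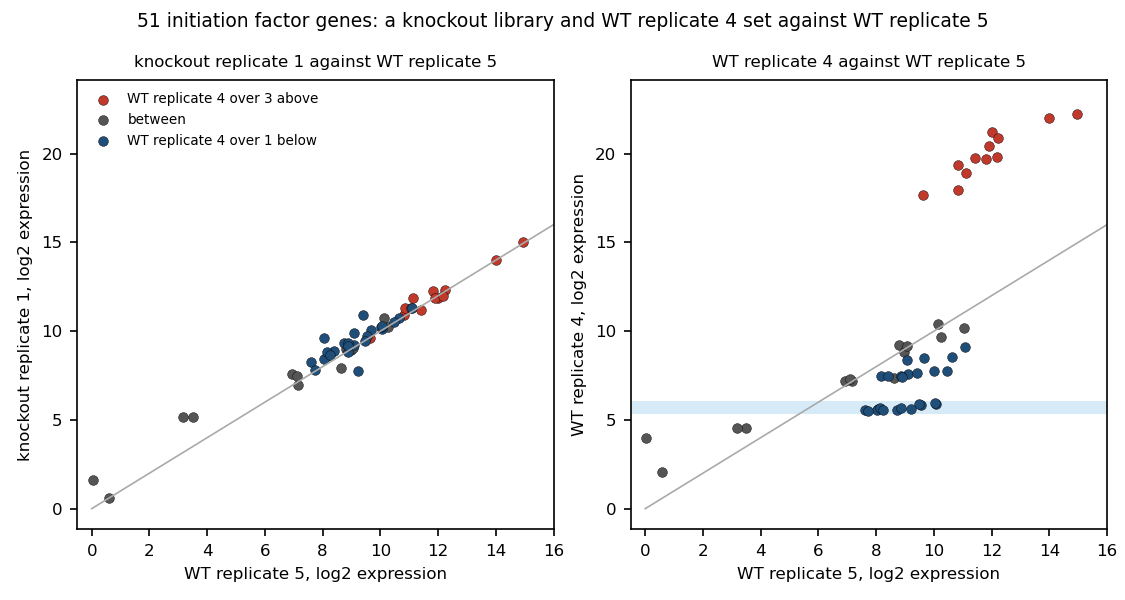
Deposited log2 expression of the 51 initiation genes in knockout replicate 1 (left) and WT replicate 4 (right), each against WT replicate 5, 1 point per gene, with the line of equal values; the shaded band marks 5.4 to 6 log2. The knockout library follows the line (Pearson's r = 0.98), while WT replicate 4 places 12 genes over 3 log2 above and 25 over 1 log2 below the median of the other libraries.

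With all 4 libraries, limma called none of the 51 genes between knockout and WT at an adjusted p under 0.05, and none of all 17303 rows (0%). At an unadjusted p under 0.05 the initiation genes gave 1, Eif2b5, which was higher in the knockout, against 0.676% of all rows higher and 3.09% lower. By direction alone, 17 of 51 genes (33.3%) had both knockout values above both WT values, against 17.3% of all rows, and 4 (7.84%), Eif1, Eif4e3, Eif5 and Eif6, had both below, against 18.8% of all rows. The initiation genes are mostly well expressed, and these shares were closer among rows of similar level. Among rows with at least 5 log2 in 2 or more libraries, 34.0% of the 47 initiation genes and 30.8% of all 9144 rows had both knockout values above both WT values. The median difference there was 0.64 log2 for the initiation genes and 0.60 log2 for all rows. Of the 17 genes above both WT values, 15 (88.2%) belong to those in which WT replicate 4 was over 1 log2 below the other libraries, as do 70.8% of all rows above both WT values. They are 60% of the 25 initiation genes of that kind, against 41.9% of all such rows.

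Without WT replicate 4, limma again called none of the 51 genes and none of all rows (0%), with adjusted p-values from 0.466 upward. Before adjustment, p was under 0.05 for 5 genes higher in the knockout (Eif2b5, Eif3b, Eif3j2, Eif3m and Eif4g2) and 1 lower (Eif4enif1), against 5.4% of all rows higher and 4.99% lower. Both knockout values lay above WT replicate 5 in 28 of 51 genes (54.9%, against 41.8% of all rows) and below it in 8 (15.7%, against 33.4%), and in 15 they lay on either side. The median difference was small, 0.13 log2 against 0.07 log2 over all rows. In the opposite case, without WT replicate 5, limma called 31 of the 51 genes, 19 higher (14.2% of all rows) and 12 lower (14.5%). Those 12 are the genes whose WT replicate 4 value was over 3 log2 above the others. Leaving out knockout replicate 1 gave 0 calls among the 51, where 0% of all rows were called higher and 0.15% lower. Leaving out knockout replicate 3 also gave 0, where 0.0116% of all rows were called higher and 0.497% lower. In this RNA from whole cell samples, fewer cells of a type and less RNA per cell cannot be told apart.

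**Figure D2:**
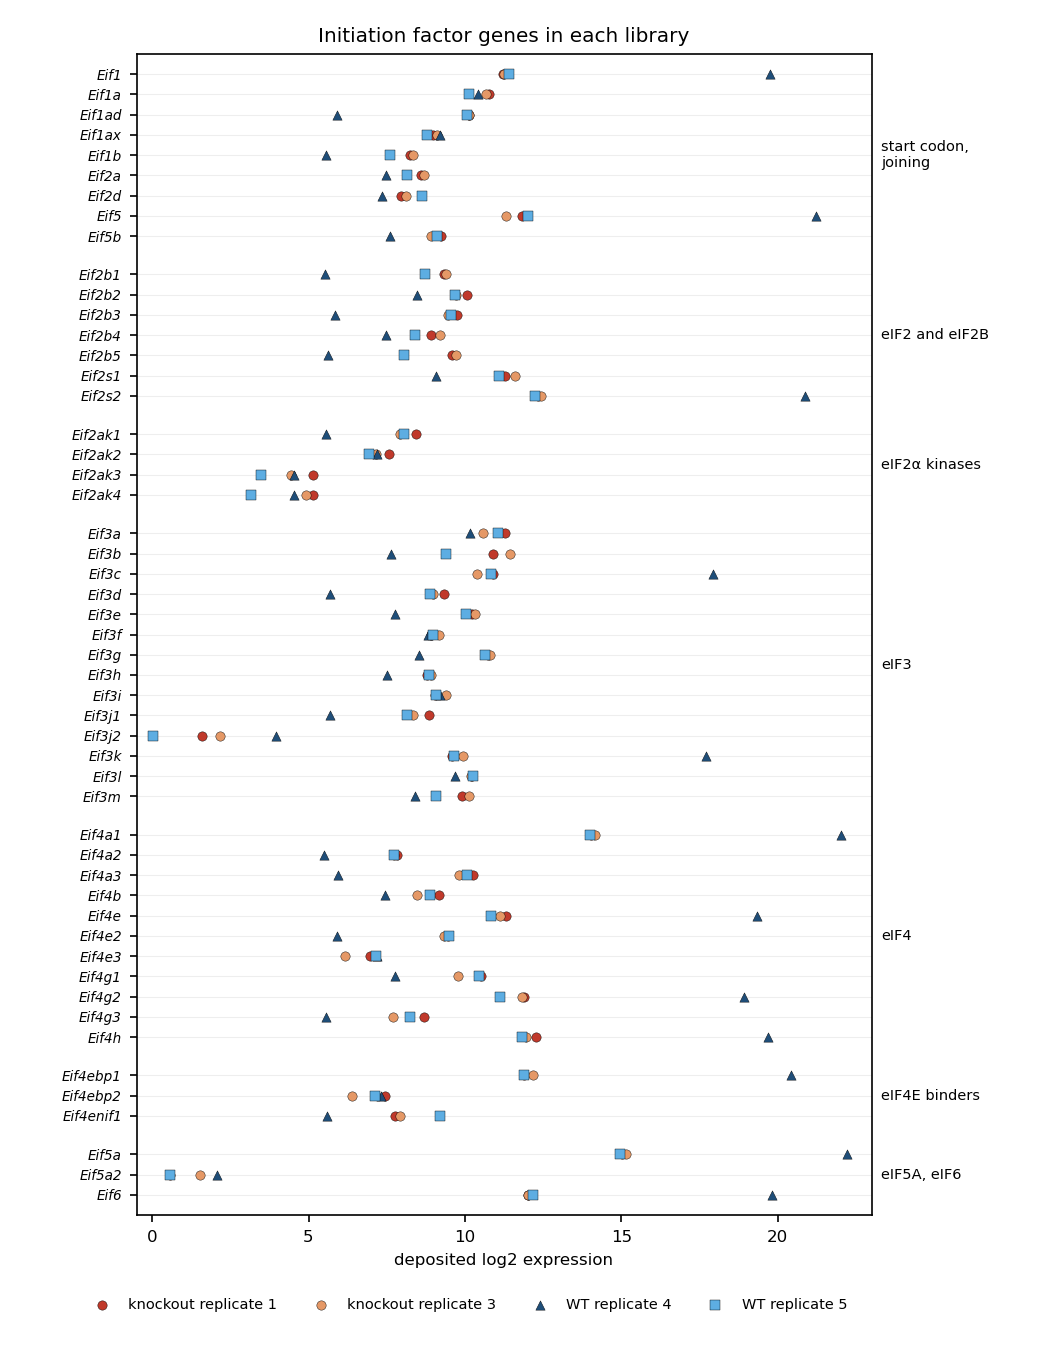
Deposited log2 expression of each of the 51 initiation genes, grouped by role, with 1 symbol per library (knockout replicates 1 and 3, WT replicates 4 and 5). Knockout values and WT replicate 5 lie close together in most genes, and WT replicate 4 lies far to the right in 12 genes and to the left in 25.

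The gap of a gene is the distance between its lowest knockout value and its highest WT value, where both knockout values were higher. The 4 genes with the widest gaps were Eif2b5 (1.53 log2), Eif3b (1.49 log2), Eif3m (0.82 log2) and Eif1b (0.65 log2), and their promoters are shown with the motifs they hold. Each window runs from 250 bases before to 50 after the start of transcription in RefSeq (GRCm38.p6), and capitals mark any of the motifs CACGTG (E-box), CCGGAAG (ETS), GGGCGG (GC box) and CCAAT, searched on both strands. The windows lie at chr16:20498567-20498866 on the plus strand for Eif2b5, chr5:140419055-140419354 on the plus strand for Eif3b, chr2:105016978-105017277 on the minus strand for Eif3m and chr9:120492356-120492655 on the plus strand for Eif1b.
Eif2b5: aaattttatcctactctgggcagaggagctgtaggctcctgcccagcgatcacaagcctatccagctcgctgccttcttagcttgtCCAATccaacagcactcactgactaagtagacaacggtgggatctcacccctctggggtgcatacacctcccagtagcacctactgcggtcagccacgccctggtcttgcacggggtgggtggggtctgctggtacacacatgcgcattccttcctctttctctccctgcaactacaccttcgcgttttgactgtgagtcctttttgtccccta
Eif3b: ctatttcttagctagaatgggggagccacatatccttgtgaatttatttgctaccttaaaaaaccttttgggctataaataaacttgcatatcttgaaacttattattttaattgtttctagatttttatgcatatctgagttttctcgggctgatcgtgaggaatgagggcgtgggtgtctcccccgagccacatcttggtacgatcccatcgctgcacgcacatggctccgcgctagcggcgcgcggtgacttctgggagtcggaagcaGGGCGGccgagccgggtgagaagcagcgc
Eif3m: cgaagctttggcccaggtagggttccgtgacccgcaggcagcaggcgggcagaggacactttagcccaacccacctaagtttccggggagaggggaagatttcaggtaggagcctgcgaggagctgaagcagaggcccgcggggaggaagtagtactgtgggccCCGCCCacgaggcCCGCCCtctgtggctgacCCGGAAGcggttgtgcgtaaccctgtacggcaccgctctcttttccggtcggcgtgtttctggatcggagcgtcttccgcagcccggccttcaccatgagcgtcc
Eif1b: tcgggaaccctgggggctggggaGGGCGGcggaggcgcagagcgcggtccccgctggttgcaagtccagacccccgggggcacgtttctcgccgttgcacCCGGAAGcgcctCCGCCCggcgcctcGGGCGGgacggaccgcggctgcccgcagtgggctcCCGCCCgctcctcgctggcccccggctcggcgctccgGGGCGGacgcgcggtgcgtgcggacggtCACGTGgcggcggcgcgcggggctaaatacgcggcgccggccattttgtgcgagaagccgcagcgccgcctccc
No motif of the 4 was in all 4 windows. The window of Eif2b5 held 1 CCAAT and that of Eif3b 1 GC box, found downstream of the start, while Eif3m held 1 ETS motif with 2 GC boxes and Eif1b 1 E-box, 1 ETS motif and 5 GC boxes. Over the 41 initiation genes with a promoter in the table, the GC box was found in 73.2%, the ETS motif in 34.1%, the E-box in 19.5% and CCAAT in 31.7%. Over all 27025 promoters the GC box was found in 35.9%, the ETS motif in 9.14%, the E-box in 7.24% and CCAAT in 38%. A match describes the letters of a window and does not show binding.

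Among the subunits of eIF2 and eIF2B, 5 of 7 genes (71.4%) had both knockout values above both WT values, against 17.3% of all rows, and none had both below, against 18.8%. Among all rows with at least 5 log2 in 2 or more libraries, 30.8% had both above and 9.30% both below. In 6 of the 7 WT replicate 4 was over 1 log2 below the other libraries, and 41.9% of all rows of that kind had both knockout values above both WT values. Against WT replicate 5 alone 6 of the 7 (85.7%) had both knockout values above, against 41.8% of all rows. Where WT replicate 4 was over 1 log2 below, the counts with and without it rest on the same comparison with WT replicate 5. Each was 2123 over all such rows. The clearest was Eif2b5, the catalytic ε subunit that exchanges GDP for GTP on eIF2. Eif2b5 had 9.59 and 9.72 log2 in knockout replicates 1 and 3, against 5.62 in WT replicate 4 and 8.06 in WT replicate 5. Its groups did not overlap, and its gap of 1.53 log2 was wider than the difference between the knockout libraries of 0.12 log2 but not than that between the WT libraries. The difference was 2.81 log2 (SE 1.05; limma adjusted p = 0.826) with 4 libraries and 1.59 log2, or 3.01-fold, (SE 0.20; limma adjusted p = 0.466) against WT replicate 5. In the authors' deposited table Eif2b5 was the 1 initiation gene higher in the knockout, at 2.80 log2 (adjusted p = 0.0302). No other annotated gene overlaps it in GENCODE M21 (GRCm38 chr16:20498817-20509323, plus strand).

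The regulatory eIF2B subunits, through which phosphorylated eIF2 is sensed, are encoded by Eif2b1 (α), Eif2b2 (β) and Eif2b4 (δ). Eif2b1 had 9.33 and 9.40 log2 in knockout replicates 1 and 3, against 5.54 in WT replicate 4 and 8.73 in WT replicate 5. For Eif2b4 the knockout libraries had 8.90 and 9.21 log2, against 7.47 in WT replicate 4 and 8.40 in WT replicate 5. Knockout and WT values of both genes were apart, by 0.63 log2 for Eif2b1 and 0.66 log2 for Eif2b4 between the knockout mean and WT replicate 5. Over 4 libraries the differences were 2.23 log2 for Eif2b1 and 1.12 log2 for Eif2b4. Eif2b2 differed by 0.83 log2 over 4 libraries and from WT replicate 5 by 0.23 log2, less than the 0.34 log2 between the knockout libraries. Eif2b3, the γ subunit that pairs with ε, had 9.74 and 9.44 log2 in the knockout libraries, against 5.85 in WT replicate 4 and 9.55 in WT replicate 5, which lay between the knockout values. The 5 subunits had a median difference of 0.63 log2 from WT replicate 5, where Eif2b3 differed by only 0.04 log2. Over 4 libraries each was higher in the knockout on average after median centring and after quantile normalization. In all 5 WT replicate 4 was over 1 log2 below the other libraries. These scalings keep that library and cannot show whether the difference holds without it. Reads of Eif2b4 and of Snx17 on the opposite strand cannot be told apart without strand, and whether counting used strand is not given in the sources used here.

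Eif2s1 encodes eIF2α, the subunit that the stress kinases phosphorylate. It had 11.28 and 11.59 log2 in knockout replicates 1 and 3, against 9.09 in WT replicate 4 and 11.09 in WT replicate 5. Both knockout values were higher, with a difference of 0.35 log2 (SE 0.25) from WT replicate 5, close to the 0.31 log2 between the knockout libraries. Eif2s2, the β subunit, showed the opposite pattern in WT replicate 4. Its values were 12.34 and 12.45 log2 in the knockout libraries, against 20.87 in WT replicate 4 and 12.24 in WT replicate 5. The knockout libraries exceeded WT replicate 5 by 0.16 log2, while the authors' deposited table gives a log2 fold change of -7.23 (adjusted p = 0.00355).

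The 4 kinases of eIF2α answer to different stresses, and 3 of them (75%, against 41.8% of all rows) had both knockout values above WT replicate 5. Eif2ak4, which encodes GCN2, the sensor of uncharged tRNA, had 5.14 and 4.90 log2 in knockout replicates 1 and 3, against 4.55 in WT replicate 4 and 3.17 in WT replicate 5. It was the 1 kinase gene whose groups did not overlap, although its gap of 0.35 log2 was narrower than the difference between the WT libraries. The difference was 1.16 log2 (SE 0.85) with 4 libraries and 1.85 log2, or 3.60-fold, (SE 0.57; limma adjusted p = 0.491) against WT replicate 5. Eif2ak3, encoding PERK, the kinase of endoplasmic reticulum stress, had 5.15 and 4.44 log2 in the knockout libraries, against 4.53 in WT replicate 4 and 3.49 in WT replicate 5. Its lower knockout value was under that of WT replicate 4, so the groups overlapped, and the difference was 0.78 log2 (SE 0.82) with 4 libraries and 1.30 log2 (SE 0.68; limma adjusted p = 0.594) against WT replicate 5. Eif2ak2, encoding PKR, the kinase that senses double-stranded RNA, had 7.58 and 7.16 log2 in the knockout libraries, against 7.20 in WT replicate 4 and 6.93 in WT replicate 5. Eif2ak1, encoding the heme-regulated kinase HRI, had 8.43 and 7.92 log2 in the knockout libraries, against 5.56 in WT replicate 4 and 8.04 in WT replicate 5. Both sets of values overlapped between the groups. Per kilobase of exon, the level in knockout replicate 1 was 5.93 log2 for Eif2ak1, 5.23 log2 for Eif2ak2, 2.56 log2 for Eif2ak3 and 2.24 log2 for Eif2ak4. With 4 libraries the differences were 1.37 log2 for Eif2ak1 and 0.30 log2 for Eif2ak2, and against WT replicate 5 they were 0.13 log2 for Eif2ak1 and 0.44 log2 for Eif2ak2.

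The eIF3 complex contributed 14 rows, 6 of them (42.9%, against 17.3% of all rows) with both knockout values above both WT values (Eif3b, Eif3d, Eif3e, Eif3g, Eif3j1 and Eif3m) and none (against 18.8%) with both below. In 7 of the 14 WT replicate 4 was over 1 log2 below the other libraries. Of all rows of that kind, 41.9% had both knockout values above both WT values. Among all rows with at least 5 log2 in 2 or more libraries, 30.8% had both above and 9.30% both below. Against WT replicate 5 alone 7 (50%, against 41.8% of all rows) were above. Eif3b (GENCODE M21, GRCm38 chr5:140419328-140443360, plus strand), a core scaffold subunit, had 10.89 and 11.46 log2 in knockout replicates 1 and 3, against 7.64 in WT replicate 4 and 9.40 in WT replicate 5. The knockout values were the higher ones by a gap of 1.49 log2. The difference was 2.65 log2 (SE 1.09; limma adjusted p = 0.826) with 4 libraries and 1.77 log2, or 3.41-fold, (SE 0.36; limma adjusted p = 0.474) without WT replicate 4. A further fit without WT replicate 4 was added after the data were seen. That fit was restricted to rows of at least 5 log2 in 2 or more libraries. It rests on 1 WT library, and the difference of Eif3b was again 1.77 log2. Calls in the added fits are given with the processing settings at the end. The authors' deposited table lists Eif3b at 3.12 log2 (adjusted p = 0.0552).

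Eif3m, another subunit, had 9.90 and 10.12 log2 in knockout replicates 1 and 3, against 8.39 in WT replicate 4 and 9.07 in WT replicate 5. Its gap of 0.82 log2 exceeded the spread within both pairs, which held for only 1 other of the 51 genes, Eif1a. The difference was 1.28 log2 (SE 0.84) with 4 libraries and 0.94 log2, or 1.91-fold, (SE 0.22; limma adjusted p = 0.477) against WT replicate 5. Ccdc73 overlaps Eif3m (GENCODE M21, GRCm38 chr2:104999656-105017080, minus strand) on the opposite strand. Several other eIF3 subunits differed little from WT replicate 5. Eif3a, the largest scaffold subunit, differed by -0.12 log2, Eif3e by 0.25 log2 and Eif3g, an RNA-binding subunit, by 0.13 log2. Eif3h differed by 0.00 log2 and Eif3l by -0.04 log2. Over 4 libraries the differences were 0.33 log2 for Eif3a, 1.38 log2 for Eif3e, 1.18 log2 for Eif3g, 0.69 log2 for Eif3h and 0.24 log2 for Eif3l.

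Eif3c, which pairs with Eif3a in the core, had 10.91 and 10.37 log2 in knockout replicates 1 and 3, against 17.93 in WT replicate 4 and 10.82 in WT replicate 5. The WT replicate 5 value lay between the knockout values, and the authors' deposited table gives -5.97 log2 (adjusted p = 0.0226). Eif3k had 9.60 and 9.94 log2 in the knockout libraries, against 17.70 in WT replicate 4 and 9.64 in WT replicate 5, again between the knockout values. Eif3j2 was one of the lowest rows, with 1.60 and 2.16 log2 in the knockout libraries, against 3.97 in WT replicate 4 and 0.03 in WT replicate 5. The knockout values lay between the WT values, above WT replicate 5 by 1.85 log2 (limma adjusted p = 0.477), yet the authors' deposited table gives -5.03 log2 (adjusted p = 0.0149). Its longest transcript is 99.4% identical over 2379 bases to that of Eif3j1, so reads of the pair could be split by the counting and both values are uncertain. Eif3j1 had 8.85 and 8.33 log2 in the knockout libraries, against 5.69 in WT replicate 4 and 8.15 in WT replicate 5. Although these knockout values were the higher ones, the authors' deposited table gives -3.43 log2 for Eif3j1 (adjusted p = 0.139).

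The list for start codon selection and subunit joining holds 9 genes. Of these, 4 (44.4%, against 17.3% of all rows) had both knockout values above both WT values, Eif1a, Eif1ad, Eif1b and Eif2a. For Eif1ad the gap was only 0.06 log2. Both lay below in 2 (22.2%, against 18.8%), Eif1 and Eif5. Among all rows with at least 5 log2 in 2 or more libraries, 30.8% had both above and 9.30% both below. Against WT replicate 5 alone 5 of the 9 (55.6%, against 41.8% of all rows) were above and 3 (33.3%, against 33.4%) below. In 4 of the 9 WT replicate 4 was over 1 log2 below the other libraries. Of all rows of that kind, 41.9% had both knockout values above both WT values. Eif1a had 10.77 and 10.67 log2 in knockout replicates 1 and 3, against 10.40 in WT replicate 4 and 10.14 in WT replicate 5. WT replicate 4 was close to the other libraries here, and the difference was 0.44 log2 (SE 1.08) with 4 libraries and 0.57 log2 (SE 0.18; limma adjusted p = 0.499) against WT replicate 5. Eif1ax, its X-linked relative, differed by 0.03 log2 with 4 libraries and by 0.24 log2 from WT replicate 5. Eif1b, a paralog of the scanning factor Eif1, had 8.25 and 8.35 log2 in the knockout libraries, against 5.54 in WT replicate 4 and 7.61 in WT replicate 5. Both knockout values of Eif1b were higher, by 0.69 log2 (SE 0.23) against WT replicate 5. The longest transcripts of Eif1 and Eif1b are 81.1% identical over 350 bases, and the antisense transcript D830035M03Rik overlaps Eif1b. Eif2a encodes eIF2A, which can deliver initiator tRNA outside the eIF2 pathway and is not eIF2α. It had 8.61 and 8.70 log2 in the knockout libraries, against 7.49 in WT replicate 4 and 8.16 in WT replicate 5, a difference of 0.83 log2 with 4 libraries and 0.49 log2 from WT replicate 5. The authors' deposited table gives the opposite sign for Eif2a, at -3.36 log2 (adjusted p = 0.116).

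Eif1, which monitors pairing at the start codon, had 11.22 and 11.24 log2 in knockout replicates 1 and 3, against 19.75 in WT replicate 4 and 11.41 in WT replicate 5. Eif5, the GTPase-activating protein for eIF2, had 11.84 and 11.32 log2 in the knockout libraries, against 21.21 in WT replicate 4 and 12.01 in WT replicate 5. Without WT replicate 4 these were differences of -0.18 log2 for Eif1 (SE 0.18; limma adjusted p = 0.752) and -0.43 log2 for Eif5 (SE 0.34; limma adjusted p = 0.700), close to their standard errors. Eif5b, the subunit joining GTPase, had 9.24 and 8.92 log2 in the knockout libraries, against 7.60 in WT replicate 4 and 9.10 in WT replicate 5, which lay between the knockout values. Eif2d, a factor of non-canonical initiation and recycling, had 7.94 and 8.11 log2 in the knockout libraries, against 7.34 in WT replicate 4 and 8.63 in WT replicate 5. The knockout values lay between the WT values, with a difference of -0.60 log2 from WT replicate 5.

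Of the 11 eIF4 genes, 1 (9.09%, against 17.3% of all rows) had both knockout values above both WT values, Eif4a2 by a gap of only 0.006 log2. In 1 (9.09%, against 18.8%) both lay below, Eif4e3. Against WT replicate 5 alone 5 (45.5%, against 41.8% of all rows) were above and 2 (18.2%, against 33.4%) below. Eif4e, the cap-binding protein, had 11.33 and 11.13 log2 in knockout replicates 1 and 3, against 19.35 in WT replicate 4 and 10.85 in WT replicate 5. The knockout values exceeded WT replicate 5 by 0.38 log2 (SE 0.21; limma adjusted p = 0.601) and were far under WT replicate 4. Eif4g1, the scaffold that joins the cap-binding protein, the helicase and eIF3, had 10.50 and 9.79 log2 in the knockout libraries, against 7.77 in WT replicate 4 and 10.46 in WT replicate 5, a difference of 1.03 log2 with 4 libraries and -0.32 log2 from WT replicate 5. Eif4g2, a relative that lacks the eIF4E-binding region, had 11.89 and 11.83 log2 in the knockout libraries, against 18.93 in WT replicate 4 and 11.12 in WT replicate 5. Its difference from WT replicate 5 was 0.74 log2, or 1.67-fold, (SE 0.18; limma adjusted p = 0.477), whereas with 4 libraries it was -3.17 log2 as deposited and of the opposite sign after quantile normalization.

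Eif4a1, the main RNA helicase of the cap complex, had 14.02 and 14.16 log2 in knockout replicates 1 and 3, against 22.02 in WT replicate 4 and 14.01 in WT replicate 5. The 3 libraries other than WT replicate 4 agreed within 0.16 log2, the size of the difference between knockout replicate 3 and WT replicate 5. The authors' deposited table gives -6.83 log2 for Eif4a1 (adjusted p = 0.00262). Its pseudogene Eif4a-ps4, 99.9% identical over 1218 bases, went along with it at 8.90 and 9.03 log2 in the knockout libraries, against 17.04 in WT replicate 4 and 8.72 in WT replicate 5. Eif4h, a cofactor of the helicase, had 12.29 and 11.96 log2 in the knockout libraries, against 19.68 in WT replicate 4 and 11.81 in WT replicate 5. Per kilobase of exon, the level of Eif4a1 was 12.05 log2 in knockout replicate 3 and 11.89 log2 in WT replicate 5, far above that of Eif4a2 at 5.32 log2 in knockout replicate 3 and 5.31 log2 in WT replicate 5. Eif4e3, a weak cap binder of the eIF4E family, had 6.96 and 6.17 log2 in the knockout libraries, against 7.20 in WT replicate 4 and 7.16 in WT replicate 5.

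The eIF4E-binding proteins hold eIF4E away from Eif4g1 until mTORC1 phosphorylates them. Eif4ebp1 had 11.89 and 12.19 log2 in knockout replicates 1 and 3, against 20.43 in WT replicate 4 and 11.90 in WT replicate 5. Eif4ebp2 had 7.45 and 6.38 log2 in the knockout libraries, against 7.33 in WT replicate 4 and 7.11 in WT replicate 5. Neither gene separated the groups, and Eif4ebp2 had the widest spread of the 51 genes between the knockout libraries, 1.07 log2. Eif4enif1 encodes 4E-T, which carries eIF4E into the nucleus and binds it in repressed mRNA particles. It had 7.75 and 7.92 log2 in the knockout libraries, against 5.60 in WT replicate 4 and 9.21 in WT replicate 5. The knockout values lay between the WT values. The difference of -1.37 log2 from WT replicate 5 (SE 0.23; limma adjusted p = 0.474) was the most negative among the 51 genes, while the difference over 4 libraries was 0.43 log2 and turned to -0.57 log2 after quantile normalization.

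Eif5a encodes the hypusine-containing factor that helps the ribosome through difficult peptide bonds, and per kilobase of exon it was the most abundant of the 51 transcripts in every library. It had 15.01 and 15.13 log2 in knockout replicates 1 and 3, against 22.23 in WT replicate 4 and 14.94 in WT replicate 5. Against WT replicate 5 the difference was 0.13 log2 (SE 0.26). Its paralog Eif5a2 was near the floor, at 0.58 and 1.52 log2 in the knockout libraries, against 2.06 in WT replicate 4 and 0.58 in WT replicate 5. Eif6, which keeps the ribosomal subunits apart, had 12.01 and 12.02 log2 in the knockout libraries, against 19.82 in WT replicate 4 and 12.17 in WT replicate 5. Both knockout values were lower than both WT values, with a difference of -0.16 log2 from WT replicate 5 (SE 0.18; limma adjusted p = 0.759).

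**Figure D3:**
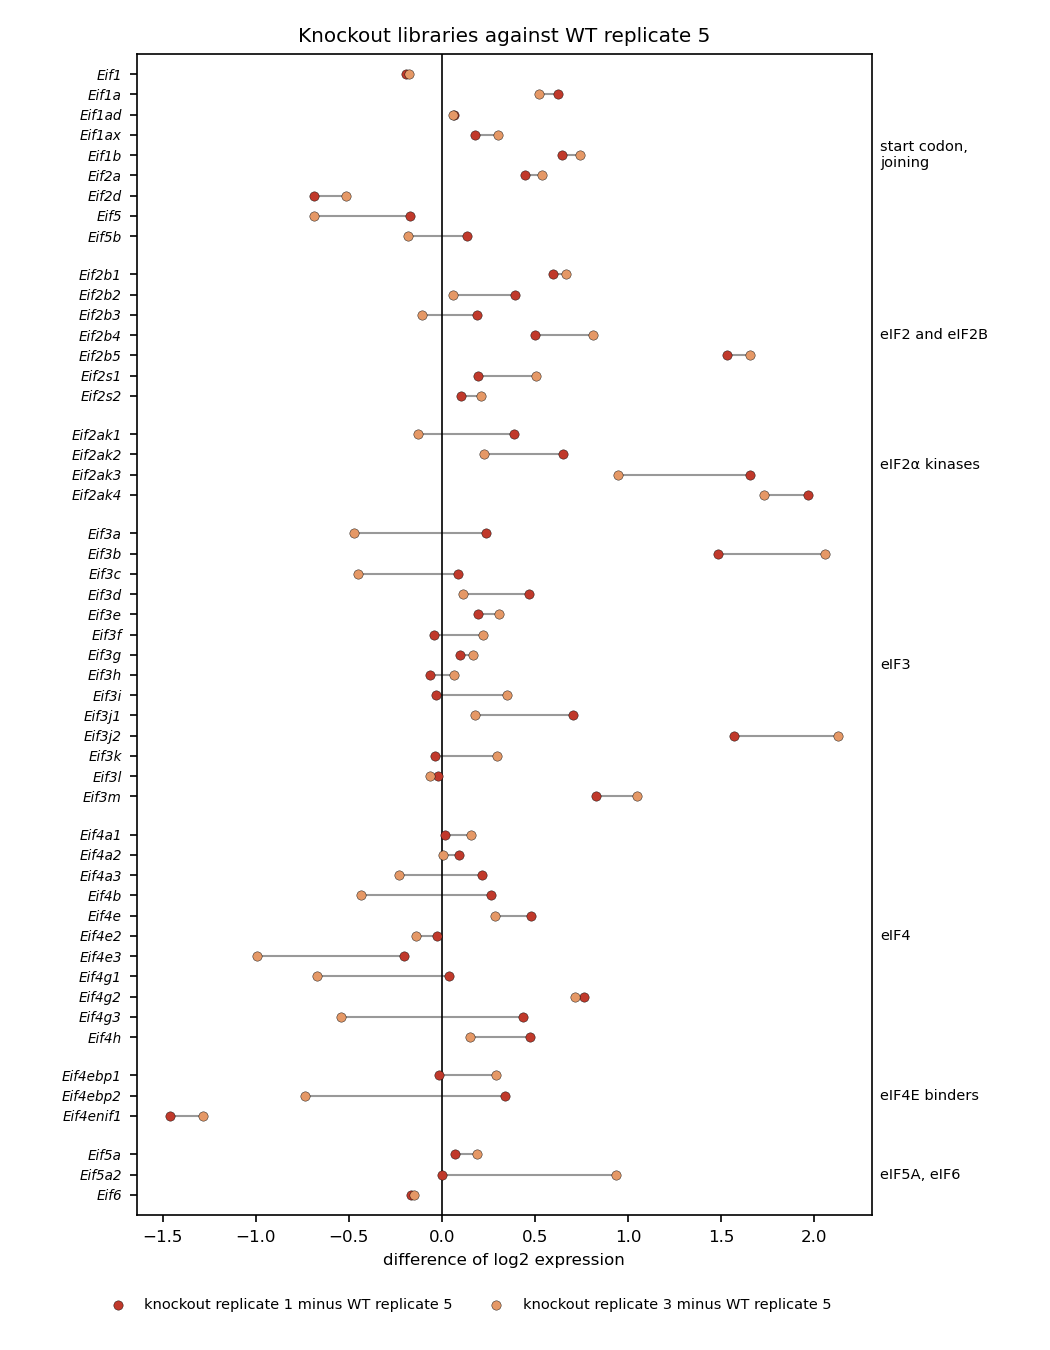
Difference in deposited log2 expression of knockout replicates 1 and 3 from WT replicate 5 for each of the 51 initiation genes, grouped by role, with a line joining the points of a gene. Both points lie right of 0 in 28 genes and left of 0 in 8; Eif2b5, Eif3b, Eif2ak4 and Eif3j2 lie farthest right and Eif4enif1 farthest left.

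The authors' deposited table called 9 of the 51 genes lower in the knockout (17.6%, against 3.94% of all rows) and 1, Eif2b5, higher (1.96%, against 0.156%). The 9 were Eif1, Eif2s2, Eif3c, Eif3j2, Eif4a1, Eif4ebp1, Eif4h, Eif5a and Eif5b. In 7 of them (77.8%) WT replicate 4 was over 3 log2 above the other libraries, as in 86.6% of all rows called lower in the authors' deposited table. The 7 are 58.3% of the 12 initiation genes of that kind, against 30.2% of all such rows. The deposited log2 fold changes were -7.25 for Eif1 (adjusted p = 0.00445), -7.09 for Eif4ebp1 (adjusted p = 0.00503), -6.63 for Eif4h (adjusted p = 0.00766) and -5.96 for Eif5a (adjusted p = 0.00821) in the authors' deposited table. Against WT replicate 5 the same genes differed by -0.18, 0.14, 0.31 and 0.13 log2. Eif5b was listed at -5.23 log2 (adjusted p = 0.0435) in the authors' deposited table, although both knockout values exceeded WT replicate 4 and the difference with 4 libraries was 0.73 log2. For 6 genes (11.8%, against 8.95% of all rows), Eif3k, Eif3l, Eif4e, Eif4ebp2, Eif5 and Eif6, the authors' deposited table lists a p-value of exactly 1 beside a fold change, from -6.05 log2 for Eif3l to -8.86 log2 for Eif4ebp2. The sign in the authors' deposited table opposed the difference over 4 libraries in 11 of the 51 genes (21.6%, against 15.6% of all rows) and the difference from WT replicate 5 in 18 (35.3%, against 41.2%). Eif2a, Eif3e and Eif3j1 were among the 11, although both their knockout values exceeded both WT values. Their deposited log2 fold changes were -3.36, -3.34 and -3.43.

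Of 42 other genes of the pathway, chosen for their links to initiation, 41 were tested and limma called none. Both knockout values were above both WT values in 7 (17.1%, against 17.3% of all rows) and below both in 1 (2.44%, against 18.8%), Pabpc4, a cytoplasmic poly(A)-binding protein. Against WT replicate 5 they were above in 14 (34.1%, against 41.8%) and below in 10 (24.4%, against 33.4%), with a median difference of -0.04 log2. Among the 10 genes of mTORC1 and MNK signalling to eIF4, 3 lay above both WT values (30%, against 17.3% of all rows). Against WT replicate 5 alone 3 lay above (30%, against 41.8% of all rows) and 3 below (30%, against 33.4%). The median difference was -0.22 log2, compared with 0.77 log2 over 4 libraries. The 3 below were Tsc2, an inhibitor of Rheb, at -1.09 log2, the S6 kinase gene Rps6kb2 at -0.93 log2 and Mknk1, an eIF4E kinase, at -0.30 log2. Mtor, the kinase itself, had 6.98 and 6.98 log2 in knockout replicates 1 and 3, against 5.21 in WT replicate 4 and 6.60 in WT replicate 5, a difference of 1.07 log2 with 4 libraries and 0.37 log2 from WT replicate 5. Above both WT values with it were Rheb, its activating GTPase, and Rptor, the substrate-binding subunit of mTORC1. Among 6 regulators of eIF2α dephosphorylation and of GCN2, 1 lay above both WT values (16.7%, close to the 17.3% of all rows). That gene, Ppp1cc, a catalytic subunit of protein phosphatase 1, had 8.01 and 8.22 log2 in the knockout libraries, against 5.38 in WT replicate 4 and 6.85 in WT replicate 5, a difference of 1.27 log2 from WT replicate 5 that was larger with 4 libraries. Ppp1r15a and Ppp1r15b, which direct the phosphatase to eIF2α, were not among them. Gspt1, the termination factor eRF3a, had 9.01 and 9.19 log2 in the knockout libraries, against 5.53 in WT replicate 4 and 7.78 in WT replicate 5, the widest difference from WT replicate 5 among the 10 elongation and termination factors at 1.31 log2. The 9 poly(A)-binding and scaffold genes had none above both WT values, against 17.3% of all rows. The 4 recycling genes had none above (against 17.3%) or below (against 18.8%).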

How the data were processed

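The 4 libraries were prepared from oligo dT selected mRNA, fragmented, copied with random primers and amplified by PCR, per the labels' protocols. GRCm38 is the build, and DESeq2, featureCounts, HISAT2 2.1.0 and CASAVA the tools, listed without roles per the submitters' processing notes. The authors deposited 1 table of 55339 gene symbols with log2 expression values for each library, whose normalization and transformation are not given in the sources used here. Beside them the deposited table holds the authors' log2 fold change, p-value and adjusted p-value. Its fold is headed WT against knockout, but rose with knockout minus WT across 17185 genes (Pearson's r = 0.78; 0.27 for knockout minus WT replicate 5 alone) and is read as knockout over WT. The table was foreseen as counts, and since it holds log2 values, the limma test named for that case was used; depth is unknown, and no interval from counts was computed. The table has 0 columns of other samples.

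Rows with a log2 value of at least 0 in 2 or more libraries, and not 0 in all, were tested (17303; 30280 rows are 0 in all libraries). limma 3.58.1 in R 4.3.3, with a mean-variance trend, was fitted to all tested rows, two-sided, with Benjamini-Hochberg adjustment and a threshold of 0.05; the script was tested on simulated data. Differences are knockout minus WT. With a library left out, the lone library of a group is taken to vary like the pair of the other. An exact permutation test of 2 against 2 libraries cannot go below p = 0.333, two-sided, and was not used. Knockout replicate 3 carries the number 2 in its title and the other libraries 1, with no meaning given. Levels per kilobase subtract the log2 of exon length in GENCODE M21 from the log2 value and assume that the deposited scale is not length-corrected. Transcripts were aligned with blastn. The members, their roles and the other lists were chosen with earlier results of these data known, and the role of Eif1a was assigned after the table was seen. Values in every library are given for genes whose gap between groups exceeds the spread of both pairs, for genes called in the deposited table, for the 4 eIF2α kinases and for 8 central factors; the other genes so shown were chosen after their values were seen. Alternatives changed the libraries, pseudocount, filter, scaling and variance model.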

Additional observations from a re-analysis of the deposited data

How the results depend on the processing

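Leaving out 1 library at a time gave between 0 and 4960 rows called by limma (none with all 4 libraries, lowest adjusted p 0.826): 0 without WT replicate 4, 4960 without WT replicate 5, 26 without knockout replicate 1 and 88 without knockout replicate 3. The same fits gave 0 to 31 called initiation genes, 20 to 31 with both knockout values above the WT values used (17 with all 4), 6 to 16 with both below (4 with all 4) and a median difference of 0.13 to 0.78 log2. Those above were 39.2% to 60.8% of the initiation genes, against 23.8% to 41.8% of all tested rows in these fits. Those below were 11.8% to 31.4%, against 25.2% to 50.7% of all tested rows. The sign of the difference changed in 21 of 51 genes without WT replicate 4 and in 15 under quantile normalization. Pseudocounts of 0.1, 0.5 and 1, both filters, median centring, quantile normalization and no trend gave 0 calls. Quantile normalization moved the median of all tested rows to 0.16 log2 and median centring to -0.23 log2, from -0.09 log2; the initiation genes' medians were then 0.58 and 0.50 log2. Settings joined after the data were seen, all without WT replicate 4, gave 101 calls, 1 of them an initiation gene (Eif3b, 1.77 log2, adjusted p = 0.0297), with rows of at least 5 log2. Counts above WT replicate 5 were then 24 with the filter (of 47 genes), 29 with centring, 27 with quantile normalization and 28 with a pseudocount of 1, and counts below it were 8 with the filter, 6 with centring, 8 with quantile normalization and 8 with the pseudocount. The filtered fit held 9144 rows. Of all its rows 39.5% lay above WT replicate 5, against 43.9% with centring, 34.3% with quantile normalization and 41.8% with the pseudocount. The shares of all rows below it were 35.2%, 30.5%, 37.0% and 33.4% in the same order. The cause of these changes was not tested. No paired analysis was possible because knockout and WT share no replicate number. With 2 libraries a group and unknown depth, differences smaller than the spread between these libraries were not detectable. Larger ones could also go uncalled, as for Eif3m at 1.28 log2 with all 4 libraries. The lack of a call therefore does not show that a gene was unchanged.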
